A study of Mus musculus with 32 samples.

Results

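Skeletal muscle differentiation is held back by a small group of transcription factors and by the Notch receptor that feeds into them. The genes described here are 8 such repressors and modulators of myogenesis, Notch1, Hes1, Hes6, Bhlhe40, Snai1, Snai2, Zeb1 and Twist1. They were chosen by name, with earlier results of these data known, and every probe set annotated to 1 of them was followed. That gave 10 probe sets, with 2 each for Notch1 and Zeb1, and 8 genes among 8251 on the array. The 14 groups in which they were followed came from C2C12 cells, a mouse line of skeletal myoblasts that fuse into myotubes when serum is withdrawn.

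The TSA arm compared cells treated with trichostatin A, an inhibitor of zinc-dependent histone deacetylases, with control cells, whose labels name no agent. Its first time, 0 h, was growth medium, and the others were 4, 12, 24 and 48 h of differentiation medium, with 2 arrays in each of 10 groups. The dose of trichostatin A and the length of exposure are not given in the sources used here. The Sir2 arm compared cells carrying pHan with Sir2, an NAD-dependent deacetylase, with cells carrying pHan alone, called vector here. Its times were 12 and 36 h of differentiation medium, with 3 arrays in each of 4 groups. The species of the Sir2 sequence and the number of clones are likewise not given in the sources used here.

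Notch1 is a receptor that is cut when a ligand such as Dll1 or Jag2 on a neighbouring cell binds it, and its intracellular part then joins the DNA-binding protein Rbpj in the nucleus. Hes1 is a classical target of that complex, a basic helix-loop-helix repressor, while Hes6 belongs to the same family but opposes Hes1 and has been described as a promoter of muscle and nerve differentiation. Bhlhe40 is a related repressor of the circadian system that can also bind MyoD. Snai1, Snai2 and Zeb1 are zinc finger repressors that bind E-boxes, the CANNTG sites that MyoD and myogenin also use. Twist1 is a helix-loop-helix factor that competes with MyoD for its partners.

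Hes6 is the member whose level differed in both arms at every time, so the DNA before its starts is shown, with E-boxes in capitals. The windows are the 250 bases before a RefSeq gene start on GRCm38.p6, written 5′ to 3′ on the strand of the gene. The window of Snai1, a factor that itself binds E-boxes, stands beside them.
Hes6, upstream start, chr1:91414039-91414288, minus strand: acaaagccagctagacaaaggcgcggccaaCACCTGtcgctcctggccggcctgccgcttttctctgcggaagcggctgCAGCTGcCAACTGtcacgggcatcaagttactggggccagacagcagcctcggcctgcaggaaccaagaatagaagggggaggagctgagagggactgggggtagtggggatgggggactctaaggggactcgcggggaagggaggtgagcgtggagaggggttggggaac
Hes6, downstream start, chr1:91413223-91413472, minus strand: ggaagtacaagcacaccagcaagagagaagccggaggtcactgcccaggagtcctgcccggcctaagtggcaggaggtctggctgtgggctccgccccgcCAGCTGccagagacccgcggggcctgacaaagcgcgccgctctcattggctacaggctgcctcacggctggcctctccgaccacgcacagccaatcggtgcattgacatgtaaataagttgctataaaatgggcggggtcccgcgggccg
Snai1, chr2:167537945-167538194, plus strand: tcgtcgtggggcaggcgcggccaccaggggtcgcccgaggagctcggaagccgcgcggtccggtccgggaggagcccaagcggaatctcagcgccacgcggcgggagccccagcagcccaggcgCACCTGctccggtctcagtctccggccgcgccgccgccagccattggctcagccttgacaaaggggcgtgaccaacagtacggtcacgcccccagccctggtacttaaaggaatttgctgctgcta
The upstream Hes6 window held 3 E-boxes, of which CAGCTG and CAACTG lie 1 base apart, and the downstream window held 1. The E-box of Snai1 was CACCTG, the form that Snai and Zeb proteins are known to prefer, and the upstream Hes6 window also held 1 of that form. The windows of Notch1 and Twist1 held none. CANNTG reads the same on both strands, and 66.2% of 32841 such windows held at least 1, 31.8% at least 2 and 12.2% at least 3. CACCTG or its complement CAGGTG occurred in 17.2%. A match describes the letters only.

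All 8 genes of the myoblast and muscle marker list lay above the constant added before the log in some group of each arm. Some genes of other cell types lay above it too. Of 5 leukocyte genes on the array, 2 did in TSA-treated and in control cells and 3 in Sir2 and in vector cells. Of 5 endothelial genes 2 did in TSA-treated, 3 in control, 3 in Sir2 and 4 in vector cells. Of 5 neuronal genes 3, 2, 3 and 4 did, in the same order. Ptprc and Itgam among the leukocyte genes, Cdh5 among the endothelial and Snap25 among the neuronal ones stayed at or under it in every group. Some marker sums differed between conditions. The summed intensity of the muscle list ranged over 4782 to 8417 in Sir2 groups against 6894 to 9751 in vector groups. The sum of the 5 neuronal genes ranged over 184 to 1046 in TSA-treated groups against 156 to 332 in control groups, and over 51.5 to 153 in Sir2 groups against 38.2 to 67.0 in vector groups. That of 3 adipocyte genes ranged over 86.9 to 134 in Sir2 groups against 49.4 to 75.8 in vector groups. That of 4 smooth muscle genes, of which Myh11 was at or under the constant throughout, ranged over 16530 to 24822 in TSA-treated groups against 11640 to 20439 in control groups, and over 1384 to 1699 in Sir2 groups against 2001 to 2674 in vector groups. Their part in the results was not tested. As a measure of RNA quality, Gapdh signal at the 3′ end over that at the 5′ end ranged over 0.739 to 0.882 on TSA arrays against 0.802 to 0.944 on control arrays, and over 0.672 to 0.839 on Sir2 arrays against 0.757 to 0.885 on vector arrays. A lower level in a culture cannot be told apart from fewer cells that express the gene.

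Values are deposited intensities on a linear scale, and they are not compared between arms, which had been scaled separately. Log2 changes are differences of log2(intensity + constant) with their standard errors, where the constant was 137.7 for TSA arrays and their controls and 8.82 for Sir2 and vector arrays, so the changes of dim genes are compressed. They were tested with limma across all 7453 probe sets of an arm that passed a filter on the mean, and a probe set passed at a Benjamini-Hochberg adjusted p under 0.05. Nothing in the labels says that replicate arrays came from separate cultures, so the p-values measure the spread between these arrays, and the number of arrays limits the precision. In the TSA arm 8 of the 10 member probe sets were tested. The brighter Notch1 probe set of the Sir2 arm lay below 0 on all 20 arrays there, and the dimmer Zeb1 probe set between -66.1 and 258. In the Sir2 arm 9 were tested and Twist1, at 1.38 to 13.0, was not.

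TSA-treated cells held more Hes6 and Bhlhe40 than control cells at most times, and less Snai2 at 24 and 48 h, while no comparison of TSA with control passed for Hes1, Twist1 or Notch1 by limma. Of the 18 tests of these 3 genes at single times and for the mean, 2 had an unadjusted p under 0.05, both of Hes1. The share of all probe sets at that level was not computed. At 0 h, in growth medium, 3 of 8 tested member probe sets passed (Hes6, Bhlhe40 and Zeb1, all higher), where 17.9% of all probe sets passed. At 4 h the same 3 passed, where 11.4% of all did. At 12 h 2 passed (Hes6 and Bhlhe40, higher), where 4.08% did, and at 24 h 2 passed (Hes6 higher, Snai2 lower), where 5.94% did. At 48 h 3 passed (Hes6 and Bhlhe40 higher, Snai2 lower), where 19.6% did. For the mean of the 5 times 5 passed (Hes6, Bhlhe40, Zeb1 and Snai1 higher, Snai2 lower), where 22% did. The difference between times in the effect of TSA passed for 3 (Hes6, Bhlhe40 and Snai2), where 22.2% did.

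**Figure D1:**
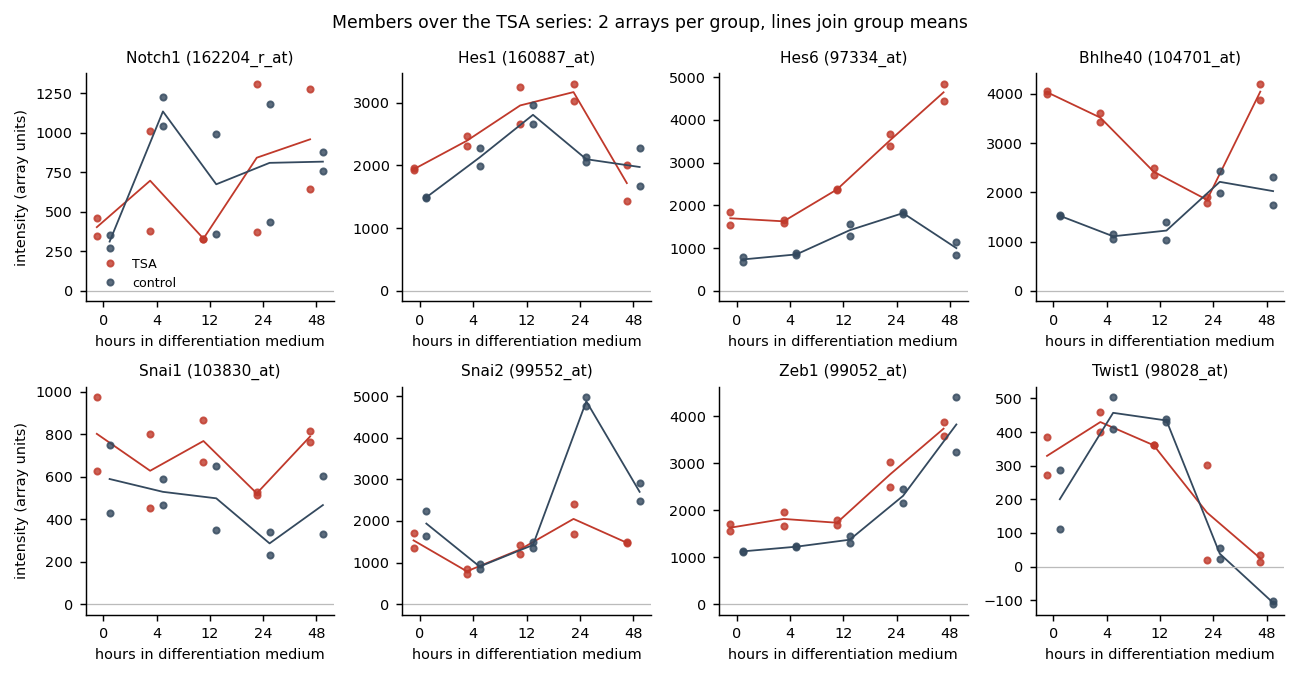
Intensity (vertical axis, array units) of 8 member probe sets over the TSA series, with 0 h in growth medium and times evenly spaced. Points are arrays, 2 per group, TSA-treated in red left of control in dark blue, and lines join group means. Hes6 separates at every time and most at 48 h, Bhlhe40 lies above control except at 24 h, and Snai2 separates at 24 and 48 h. Zeb1 also separates at 0, 4, 12 and 24 h, Hes1 at 0, 4 and 24 h, and Snai1 at 12, 24 and 48 h. Notch1 does so at 4 and 12 h and Twist1 at 12 and 48 h. Of these further separations, only those of Zeb1 at 0 and 4 h passed.

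Hes6 showed the clearest pattern of the set. It had 1852 and 1546 in TSA-treated cells at 0 h, against 682 and 790.2 in control cells. At 4 h the arrays gave 1662 and 1593 in TSA-treated cells, against 877 and 829.7 in control cells. At these 2 times every TSA-treated array lay above every control array, and the log2 changes were 1.07 ± 0.15 (adjusted p = 0.000261) and 0.83 ± 0.15 (adjusted p = 0.00246). At 12 h the values were 2353 and 2392 in TSA-treated cells, against 1278 and 1562 in control cells. At 24 h they were 3666 and 3389 in TSA-treated cells, against 1848 and 1793 in control cells. The groups stayed apart, with log2 changes of 0.69 ± 0.15 (adjusted p = 0.017) and 0.90 ± 0.15 (adjusted p = 0.00258). The call at 12 h was lost without any 1 of the arrays compared but control 12 h replicate 2 (adjusted p = 0.102 to 0.118). In a fit of only the groups compared, which leaves few residual degrees of freedom, the Hes6 calls of 4, 12, 24 and 48 h did not pass (adjusted p = 0.0709, 0.165, 0.147 and 0.0669).

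The gap in Hes6 was widest at 48 h, when the arrays gave 4850.3 and 4443 in TSA-treated cells, against 1155 and 846 in control cells. The mean intensity in TSA-treated cells was 4.64 times that in control cells, a log2 change of 2.08 ± 0.15 (adjusted p = 1.64e-06). The 2 courses differed in shape. In control cells Hes6 was higher at 12 h than at 0 h (0.83 ± 0.15, adjusted p = 0.00796) and at 24 h (1.17 ± 0.15, adjusted p = 0.00027), while the change at 48 h was 0.37 ± 0.15 (adjusted p = 0.0665). In TSA-treated cells it was higher than at 0 h at 24 h (adjusted p = 0.000508) and at 48 h (1.38 ± 0.15, adjusted p = 1.60e-05), the highest group of all 10. Every TSA-treated array at 48 h lay above every other array of the arm. The effect of TSA differed between times (adjusted p = 0.00209). The call of Hes6 at 12 h in control cells was lost without control 0 h replicate 1 or control 12 h replicate 2 (adjusted p = 0.0795 to 0.0825). In the fit of only the groups compared that call and the one of 24 h in TSA-treated cells did not pass (adjusted p = 0.151 and 0.0555).

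For Hes1, the Notch target that Hes6 opposes, no comparison of TSA with control passed. It had 1922 and 1955 in TSA-treated cells at 0 h, against 1498 and 1488 in control cells, and at 24 h 3036 and 3306 in TSA-treated cells, against 2139.7 and 2061 in control cells. Although the groups did not overlap at 0, 4 and 24 h, the log2 change at 24 h was 0.56 ± 0.17 (adjusted p = 0.0766), and over the 5 times the mean was 0.19 ± 0.08 (adjusted p = 0.0964). At 12 and 48 h the groups overlapped. Its group mean was highest at 24 h in TSA-treated cells and at 12 h in control cells. In control cells it had 2656 and 2961 at 12 h, against 1498 and 1488 at 0 h (0.85 ± 0.17, adjusted p = 0.0139), and in TSA-treated cells it was higher at 12 h (0.57 ± 0.17, adjusted p = 0.0365) and 24 h (0.67 ± 0.17, adjusted p = 0.0168) than at 0 h. The call in control cells was lost without any 1 of the arrays compared but control 12 h replicate 1 (adjusted p = 0.0871 to 0.109). That in TSA-treated cells at 12 h was lost without any 1 of the 4 arrays compared (adjusted p = 0.0518 to 0.253), and that at 24 h was lost without any 1 of the arrays compared but TSA-treated 24 h replicate 2 (adjusted p = 0.0737 to 0.103). All 3 were also lost in a fit of only the groups compared (adjusted p = 0.134, 0.0752 and 0.0745). By 48 h Hes1 had 2005 and 1433 in TSA-treated cells and 2283 and 1669 in control cells, and neither group passed against its 0 h group (adjusted p = 0.501 and 0.121). Control cells did not pass at 24 h either (adjusted p = 0.101).

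Bhlhe40 was higher with TSA already before differentiation began. In growth medium it had 4059.9 and 4002 in TSA-treated cells, against 1529.8 and 1518 in control cells, and at 4 h 3418 and 3613 in TSA-treated cells, against 1152 and 1063 in control cells. The mean intensities of TSA-treated cells were 2.65 and 3.17 times those of control cells, and the log2 changes were 1.33 ± 0.15 (adjusted p = 8.32e-05) and 1.55 ± 0.15 (adjusted p = 4.52e-05). At 12 h it had 2352 and 2484 in TSA-treated cells, against 1407 and 1040.3 in control cells. That was a log2 change of 0.92 ± 0.15 (adjusted p = 0.00438), lost without TSA-treated 12 h replicate 2 or control 12 h replicate 2 (adjusted p = 0.0543 to 0.0586).

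At 24 h the order of the Bhlhe40 groups turned, with 1914 and 1780.2 in TSA-treated cells, against 2436 and 1989 in control cells. That log2 change, -0.24 ± 0.15, did not pass (adjusted p = 0.483). At 48 h Bhlhe40 was again higher, with 3879.5 and 4206 in TSA-treated cells, against 2307 and 1741 in control cells (0.96 ± 0.15, adjusted p = 0.000957). In TSA-treated cells it was lower than at 0 h at 12 h (-0.71 ± 0.15, adjusted p = 0.0072) and at 24 h (-1.07 ± 0.15, adjusted p = 0.000479), and at 48 h its arrays lay on either side of those of 0 h. The call at 12 h was lost without TSA-treated 12 h replicate 1 (adjusted p = 0.0565). In control cells no time passed against 0 h by limma, with 0.49 ± 0.15 at 24 h (adjusted p = 0.055). The effect of TSA differed between times (adjusted p = 0.000687). With only the groups compared in the fit, TSA against control did not pass for Bhlhe40 at 12 and 48 h (adjusted p = 0.16 and 0.131).

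Snai2, also called Slug, peaked in differentiating control cells, and it was much lower in TSA-treated cells at that time. In control cells it had 4773 and 4982 at 24 h, against 1638 and 2236 at 0 h (1.29 ± 0.18, adjusted p = 0.000708). TSA-treated cells at 24 h had 1693 and 2406, against the control values just given. The mean of TSA-treated cells was 0.42 times that of control cells, a log2 change of -1.22 ± 0.18 (adjusted p = 0.00167). At 48 h it had 1468 and 1485 in TSA-treated cells, against 2913 and 2487 in control cells (-0.81 ± 0.18, adjusted p = 0.00845). The groups were apart at both times, and the call at 48 h was lost without control 48 h replicate 1 (adjusted p = 0.057). Both were lost in the fit of only the groups compared (adjusted p = 0.176 at 24 h and 0.129 at 48 h), as was the rise in control cells at 24 h (adjusted p = 0.0506).

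Before 24 h Snai2 did not separate the treatments. At 4 h it had 737 and 842 in TSA-treated cells, against 967 and 841 in control cells. This was its lowest time in either course, lower than 0 h in TSA-treated cells (-0.84 ± 0.18, adjusted p = 0.0176) and in control cells (-0.98 ± 0.18, adjusted p = 0.0182). The fall in TSA-treated cells was lost without any 1 of the arrays compared but TSA-treated 0 h replicate 1 (adjusted p = 0.0659 to 0.155), and that in control cells was lost without any 1 of the arrays compared but control 0 h replicate 1 (adjusted p = 0.0993 to 0.15). Neither passed in the fit of only the groups compared (adjusted p = 0.19 and 0.133). The effect of TSA on Snai2 differed between times (adjusted p = 0.0256). That call was lost without TSA-treated 12 h replicate 1, TSA-treated 24 h replicate 2 or control 24 h replicate 2 or 3 (adjusted p = 0.0525 to 0.069).

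Zeb1, measured by its brighter probe set, climbed with differentiation in either course. In control cells it had 4408 and 3236 at 48 h, against 1112 and 1135 at 0 h (1.63 ± 0.15, adjusted p = 3.73e-06). In TSA-treated cells it had 3586 and 3879 at 48 h, against 1549 and 1704 at 0 h (1.13 ± 0.15, adjusted p = 0.000114). At 24 h it had already passed in control cells (0.95 ± 0.15, adjusted p = 0.00128) and in TSA-treated cells (0.71 ± 0.15, adjusted p = 0.00614), where the call in TSA-treated cells was lost without TSA-treated 0 h replicate 1 or TSA-treated 24 h replicate 3 (adjusted p = 0.0567 to 0.0678). TSA-treated cells started higher. At 4 h they had 1667 and 1958, against 1206 and 1239 in control cells, and the log2 changes were 0.48 ± 0.15 at 0 h (adjusted p = 0.0428) and 0.52 ± 0.15 at 4 h (adjusted p = 0.0455). The call at 0 h was lost without any 1 of the 4 arrays compared (adjusted p = 0.0981 to 0.206), and that at 4 h was lost without any 1 of the 4 arrays compared (adjusted p = 0.0691 to 0.218). With only the groups compared in the fit, neither passed (adjusted p = 0.0599 and 0.168), nor did the change of 24 h in TSA-treated cells (adjusted p = 0.0945). At 12 and 24 h, still without overlap, the changes were 0.31 ± 0.15 (adjusted p = 0.327) and 0.25 ± 0.15 (adjusted p = 0.452). Over the 5 times the mean was 0.31 ± 0.07 (adjusted p = 0.00537), and the test of a difference between times gave adjusted p = 0.296.

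Snai1, the founding member of its family and a binder of the CACCTG form shown above, was dimmer and more scattered. At 48 h it had 764 and 816 in TSA-treated cells, against 603 and 331 in control cells, and at 24 h 529 and 515 in TSA-treated cells, against 339 and 234 in control cells. The groups did not overlap at these 2 times nor at 12 h, but no single time passed, with 0.54 ± 0.32 at 12 h (adjusted p = 0.43), 0.65 ± 0.32 at 24 h (adjusted p = 0.315) and 0.65 ± 0.32 at 48 h (adjusted p = 0.177). The mean over the 5 times passed (0.48 ± 0.14, adjusted p = 0.0299). It was lost without TSA-treated 0 h replicate 1, TSA-treated 12 h replicate 1, TSA-treated 24 h replicate 2, TSA-treated 48 h replicate 2, TSA-treated 4 h replicate 1, control 0 h replicate 1, control 12 h replicate 2, control 24 h replicate 3, control 48 h replicate 2 or control 4 h replicate 1 (adjusted p = 0.0509 to 0.0661). It was lost too when no filter was applied.

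Twist1 fell to values near or below 0 by 48 h. In control cells it had 289 and 112 at 0 h, 505 and 409.96 at 4 h, 429 and 440.3 at 12 h and 53.8 and 22.9 at 24 h, and at 48 h both arrays lay below 0. In TSA-treated cells it had 13.3 and 35.9 at 48 h, against 387 and 272 at 0 h. The 48 h level was lower than that of 0 h in TSA-treated cells (-1.52 ± 0.36, adjusted p = 0.00766) and in control cells (adjusted p = 0.0174). In the control group of 48 h both values were set to 0 before the log, so that group had no spread and no fold is given. The call in TSA-treated cells was lost without TSA-treated 0 h replicate 1 (adjusted p = 0.065), and that in control cells was lost without any 1 of the arrays compared but control 0 h replicate 2 (adjusted p = 0.0608 to 0.164). The control call was also lost in the fit of only the groups compared (adjusted p = 0.0571). No comparison of TSA with control passed for Twist1.

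Notch1, measured here by the probe set with the suffix _r_at, varied widely between arrays of a group. At 12 h it had 331 and 331 in TSA-treated cells, against 991 and 358 in control cells (-0.68 ± 0.55, adjusted p = 0.605). At 4 h it had 381 and 1013 in TSA-treated cells, against 1228 and 1043 in control cells (-0.72 ± 0.55, adjusted p = 0.481). At these times the TSA-treated arrays lay below the control arrays, and at 0, 24 and 48 h the groups overlapped. The standard error of its changes at single times was 0.55, against 0.15 for Hes6, so a change as small as that of Hes6 at 12 h was not detectable at this spread. The other Notch1 probe set was below 0 on every array of this arm and was not tested.

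Over time alone, the members moved as follows against the background of all probe sets. In control cells 1 of 8 passed at 4 h (Snai2, lower), 2 at 12 h (Hes1 and Hes6, higher), 3 at 24 h (Hes6, Snai2 and Zeb1, higher) and 2 at 48 h (Zeb1 higher, Twist1 lower), where 2.05%, 5.23%, 12.9% and 35.3% of all probe sets passed. In TSA-treated cells 1 passed at 4 h (Snai2, lower), 2 at 12 h (Hes1 higher, Bhlhe40 lower), 4 at 24 h (Hes1, Hes6 and Zeb1 higher, Bhlhe40 lower) and 3 at 48 h (Hes6 and Zeb1 higher, Twist1 lower), where 6%, 16.7%, 16.6% and 26.4% did. The 2 courses were each set against their own 0 h group, and differences between them were not tested one time at a time.

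The Sir2 arm needs a check of the transgene first. Sirt1, the mouse counterpart of Sir2, was dim, with 37.5, 48.7 and 39.9 in Sir2 cells at 12 h, against 20.3, 9.48 and 14.2 in vector cells. At 36 h it had 80.5, 69.2 and 35.8 in Sir2 cells, against 39.4, 19.6 and 36.9 in vector cells. The groups did not overlap at 12 h but did at 36 h. The log2 change was 1.14 ± 0.27 at 12 h (adjusted p = 0.0316), 0.77 ± 0.27 at 36 h (adjusted p = 0.106) and 0.95 ± 0.19 for the mean (adjusted p = 0.00641). The call at 12 h was lost without any 1 of the arrays compared but vector 12 h replicate 1 (adjusted p = 0.0666 to 0.109), and that of the mean was kept without any 1 array. Without a filter the call at 12 h was lost too (adjusted p = 0.0743). Sirt1 also rose from 12 to 36 h in vector cells, by 0.78 ± 0.27 (adjusted p = 0.0446). That rise did not pass without a filter (adjusted p = 0.0832). Sirt1 is therefore a weak check of the transgene. The muscle genes among the landmarks of differentiation were Myog, Myod1, Myf5 and Ckm, the muscle creatine kinase. In the mean of the 2 times, where 12.6% of all probe sets passed, 3 of them were lower with Sir2. These were Myog at -0.62 ± 0.14 (adjusted p = 0.0148), Myod1 at -0.42 ± 0.08 (adjusted p = 0.00336) and Ckm at -1.01 ± 0.18 (adjusted p = 0.00269). Myf5, the other myogenic factor tested, was higher in that mean (0.52 ± 0.12, adjusted p = 0.0153), a call kept without any 1 array. Chrna1 and Mef2c, from the wider muscle marker list, also passed for that mean, with directions not given here. Both calls were lost without a filter (adjusted p = 0.0657 and 0.0989).

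Sir2 cells held more Snai2 and less Hes6 than vector cells at both times, less Zeb1 and Notch1 at 12 h, and less Bhlhe40 at 36 h. At 12 h 4 of 9 tested member probe sets passed (Snai2 higher, Hes6 and the brighter probe sets of Zeb1 and Notch1 lower), where 5.55% of all probe sets passed. At 36 h 3 passed (Snai2 higher, Hes6 and Bhlhe40 lower), where 9.26% did, and for the mean 3 passed (Snai2 higher, Hes6 and Zeb1 lower), where 12.6% did. The difference between the 2 times passed for none of the 9 by limma at an adjusted p under 0.05, where 1.76% of all did. At an unadjusted p under 0.05 it was 4, namely the brighter Zeb1 probe set, Bhlhe40 and both of Notch1. The share of all probe sets at that level was not computed, so this count is not a result about the members.

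**Figure D2:**
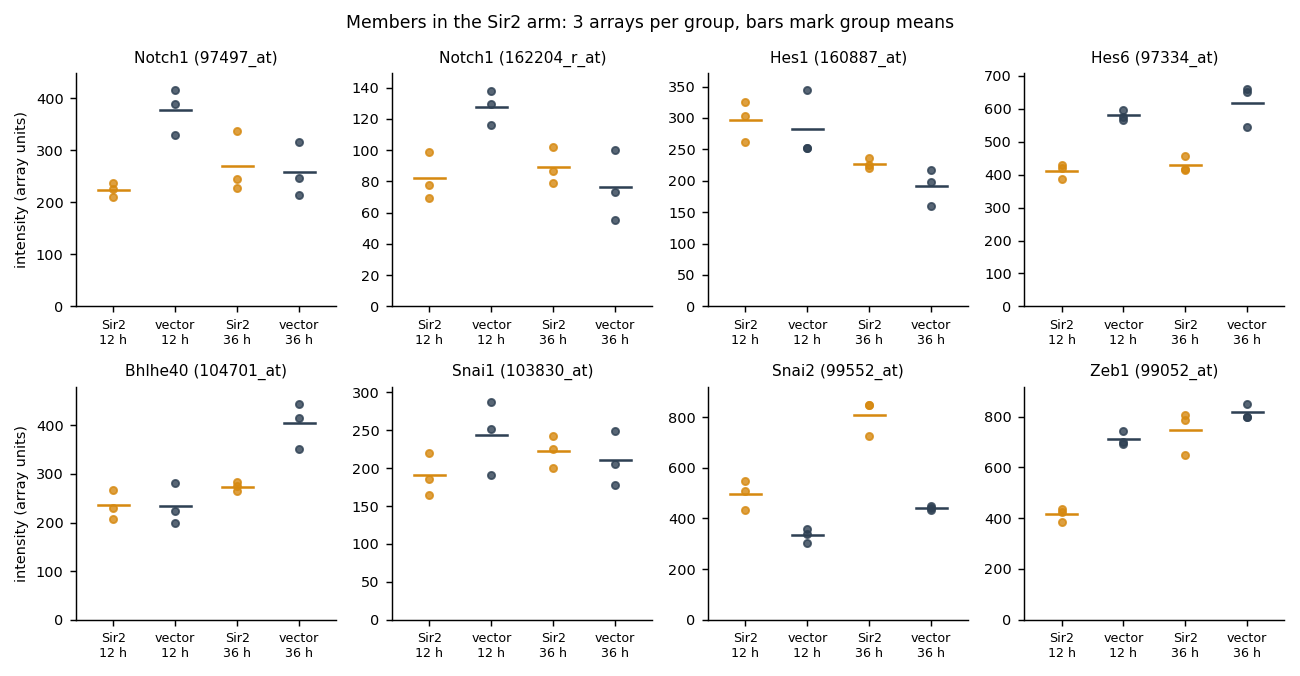
Intensity (vertical axis, array units) of 8 member probe sets in the Sir2 arm. Points are arrays, 3 per group, with Sir2 in orange left of vector in dark blue at each time, and bars are group means. Hes6 and Snai2 separate at both times, Zeb1 and Notch1 at 12 h, and Bhlhe40 and Hes1 at 36 h. The changes of Hes1 and of the _r_at Notch1 probe set did not pass.

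Snai2 was the member that rose with Sir2. It had 509.7, 548 and 434 in Sir2 cells at 12 h, against 359, 338 and 302 in vector cells. At 36 h it had 849, 724 and 849.9 in Sir2 cells, against 442, 435 and 448 in vector cells. Sir2 arrays lay above vector arrays at both times, with log2 changes of 0.56 ± 0.12 at 12 h (adjusted p = 0.0164) and 0.85 ± 0.12 at 36 h (adjusted p = 0.000904). The mean intensity of Sir2 cells at 36 h was 1.83 times that of vector cells. The difference between the times was 0.29 ± 0.17 (adjusted p = 0.455). Snai2 also rose with time, in Sir2 cells by 0.69 ± 0.12 (adjusted p = 0.000891) and in vector cells by 0.40 ± 0.12 (adjusted p = 0.022). The 12 h call of Sir2 was lost without Sir2 12 h replicate 1 or 2 or vector 12 h replicate 3 (adjusted p = 0.0673 to 0.0756), and the rise in vector cells was lost without vector 12 h replicate 3 or vector 36 h replicate 1 or 3 (adjusted p = 0.0559 to 0.0752). The 12 h call of Sir2 was lost in the fit of only the groups compared too (adjusted p = 0.0764).

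Hes6 was lower with Sir2 at both times. It had 420.4, 387 and 429.8 in Sir2 cells at 12 h, against 567, 576 and 596 in vector cells. At 36 h it had 413, 456 and 417 in Sir2 cells, against 544, 660.5 and 651 in vector cells. No Sir2 array reached the lowest vector array of its time. The log2 changes were -0.48 ± 0.11 at 12 h (adjusted p = 0.0206) and -0.52 ± 0.11 at 36 h (adjusted p = 0.00985), with a mean of -0.50 ± 0.08 (adjusted p = 0.000985) and a difference between the times of -0.03 ± 0.15 (adjusted p = 0.947). The 12 h call was lost without any 1 of the arrays compared but Sir2 12 h replicate 3 (adjusted p = 0.0505 to 0.0849), while the 36 h call was kept without any 1 array and that of the mean kept without any 1 array. At 12 h it did not pass in the fit of only the groups compared (adjusted p = 0.0628) or without a filter (adjusted p = 0.0537). Hes1, by contrast, overlapped between the groups at 12 h and lay higher without overlap at 36 h, with 226, 221 and 236 in Sir2 cells, against 198, 217 and 159 in vector cells. Its mean change was 0.16 ± 0.11 (adjusted p = 0.383). Snai1 overlapped at both times, with changes of -0.33 ± 0.17 at 12 h (adjusted p = 0.348) and 0.09 ± 0.17 at 36 h (adjusted p = 0.796).

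The brighter Zeb1 probe set had 435, 386 and 424 in Sir2 cells at 12 h, against 694, 701 and 743 in vector cells. By 36 h it had 807, 788 and 648 in Sir2 cells, against 799, 851 and 799.99 in vector cells. The wide gap of 12 h had closed to an overlap, with log2 changes of -0.77 ± 0.11 at 12 h (adjusted p = 0.00168) and -0.13 ± 0.11 at 36 h (adjusted p = 0.502). Zeb1 rose with time in Sir2 cells (0.83 ± 0.11, adjusted p = 0.000122). The difference between the effects of the 2 times was 0.64 ± 0.15 and did not pass (adjusted p = 0.0652). It passed with median centring, with the stricter filter on the mean and with trend and robust variance estimation. The other Zeb1 probe set was dim, with 44.9, 33.5 and 20.5 in Sir2 cells at 12 h, against 22.9, 32.7 and 24.7 in vector cells, and the groups overlapped at both times.

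The brighter Notch1 probe set had 226, 210.1 and 238 in Sir2 cells at 12 h, against 329, 417 and 390.04 in vector cells. At 36 h it had 245, 337 and 228 in Sir2 cells, against 246, 317 and 214 in vector cells. The groups were apart at 12 h and mixed at 36 h. The log2 change at 12 h was -0.73 ± 0.17 (adjusted p = 0.0295), a call lost without any 1 of the arrays compared but vector 12 h replicate 1 (adjusted p = 0.0537 to 0.106) and also lost without a filter (adjusted p = 0.0709). The second probe set, of suffix _r_at, pointed the same way, with 98.7, 69.5 and 77.9 in Sir2 cells, against 116, 129 and 138 in vector cells, also without overlap, at -0.60 ± 0.19 (adjusted p = 0.0919). In vector cells both probe sets were lower at 36 h than at 12 h, the brighter with a log2 change of -0.54 ± 0.17 (adjusted p = 0.0296) and the dimmer with -0.71 ± 0.19 (adjusted p = 0.0119). The call of the brighter was lost without vector 12 h replicate 2 or 3 or vector 36 h replicate 1 or 3 (adjusted p = 0.0717 to 0.118), and also without a filter (adjusted p = 0.0584). In Sir2 cells the 2 changes were 0.24 ± 0.17 and 0.12 ± 0.19, and the test of the difference gave adjusted p = 0.135 and 0.14.

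Bhlhe40 had 274, 283 and 264 in Sir2 cells at 36 h, against 415, 445 and 352 in vector cells. At 12 h it had 208, 229 and 268 in Sir2 cells, against 224, 281 and 199 in vector cells. It overlapped at 12 h and was lower with Sir2 at 36 h (-0.54 ± 0.14, adjusted p = 0.0355), a call lost without any 1 of the arrays compared but vector 36 h replicate 3 (adjusted p = 0.0725 to 0.117). It was also lost with median centring and without a filter. In vector cells it rose with time (0.77 ± 0.14, adjusted p = 0.00153). In Sir2 cells that change was 0.22 ± 0.14 (adjusted p = 0.291), and the difference between the courses was -0.55 ± 0.20 (adjusted p = 0.22). Over time 5 of 9 member probe sets passed in vector cells (Snai2 and Bhlhe40 higher, Hes1 and both of Notch1 lower), where 32.1% of all passed, and 2 in Sir2 cells (Snai2 and Zeb1, higher), where 28.5% did. Hes1 in vector cells changed by -0.54 ± 0.15 (adjusted p = 0.0169), lost without vector 12 h replicate 3 or vector 36 h replicate 3 (adjusted p = 0.0628 to 0.0727).

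**Figure D3:**
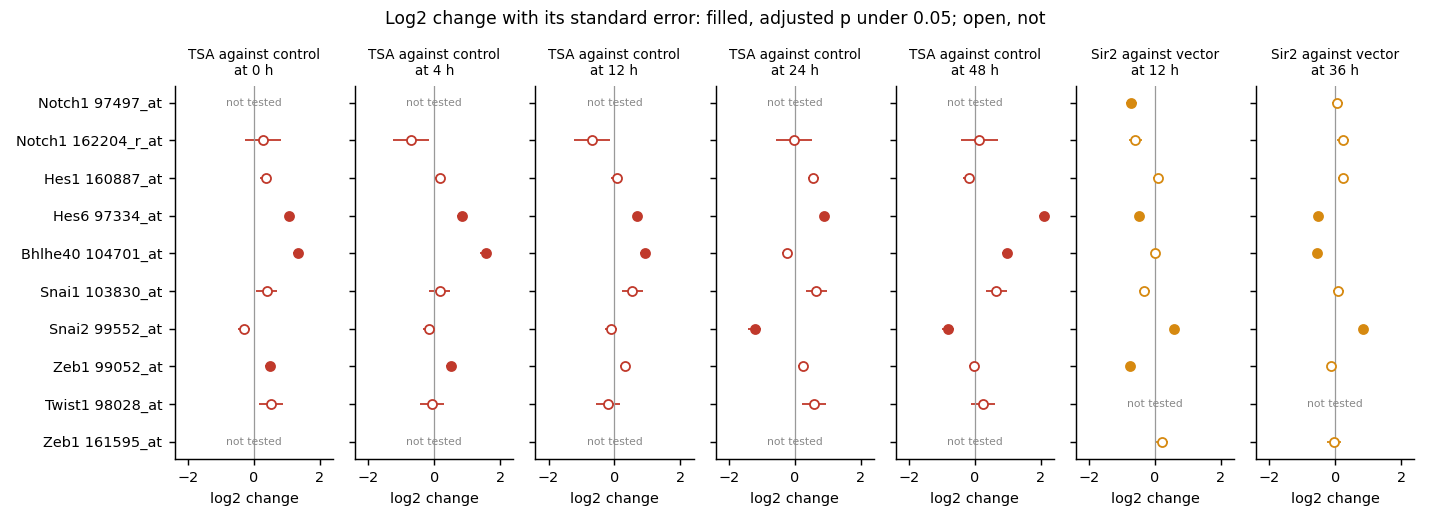
Log2 change (horizontal axis) of each member probe set, TSA against control at 5 times and Sir2 against vector at 2 times, with standard errors. Filled points passed at adjusted p under 0.05 and open points did not. Hes6 lies right of 0 in all 5 TSA panels and left of it in both Sir2 panels. Snai2 lies left of 0 in all 5 TSA panels, filled only at 24 and 48 h, and right of it in both Sir2 panels.

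Set side by side, Hes6 and Snai2 moved in opposite directions in the 2 arms. Hes6 was 1.12 higher in the mean of the TSA arm, and its log2 change was -0.50 in the mean of the Sir2 arm. For Snai2 the same means were -0.52 with TSA (adjusted p = 0.000601) and 0.71 with Sir2 (adjusted p = 0.000184). Each of these 4 calls was kept without any 1 array. The arms share no samples, their times and scaling differ, and the difference between arms was not tested. Bhlhe40 was higher in the TSA mean (0.91 ± 0.07, adjusted p = 1.73e-06), and in the Sir2 arm its mean change was -0.27 (adjusted p = 0.119).

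The other genes of the Notch pathway were tested in both arms. Of 9 further ligands and receptors 6 were on the array, and 5 were tested in the Sir2 arm. At 12 h 1 passed, where 5.55% of all did, the ligand Dll1, with 223, 228 and 212 in Sir2 cells, against 429, 550.4 and 526 in vector cells (-1.14 ± 0.15, adjusted p = 0.00109). This was the same time at which Notch1 was lower, and the 2 groups were far apart. At 36 h Dll1 had 263, 281 and 209 in Sir2 cells, against 328, 236 and 293 in vector cells, which overlapped, and the effect of Sir2 differed between the times (0.96 ± 0.21, adjusted p = 0.0432), a call lost without any 1 of the arrays compared but Sir2 36 h replicate 3 (adjusted p = 0.0507 to 0.107). That difference did not pass without a filter either (adjusted p = 0.0996). In vector cells 4 of the 5 were lower at 36 h than at 12 h, namely Jag2 (-1.40 ± 0.24, adjusted p = 0.000966), Dll1 (-0.80 ± 0.15, adjusted p = 0.00165), Notch2 (-0.81 ± 0.15, adjusted p = 0.00175) and Notch3 (-0.84 ± 0.18, adjusted p = 0.00435), with a median of -0.81 against -0.02 over all tested. In Sir2 cells 2 of the 5 passed, Jag2 and Notch2, with a median of -0.06 against -0.05. Of all probe sets 32.1% passed in vector cells and 28.5% in Sir2 cells. The call of Notch2 in Sir2 cells was lost without Sir2 12 h replicate 1 or 3 or Sir2 36 h replicate 1 or 3 (adjusted p = 0.0643 to 0.125), and it did not pass in the fit of only the groups compared (adjusted p = 0.0576) or without a filter (adjusted p = 0.0655).

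At 36 h the receptor Notch3 had 654, 541 and 493 in Sir2 cells, against 375, 413 and 263 in vector cells (0.69 ± 0.18, adjusted p = 0.0362). That call was lost without Sir2 36 h replicate 1 or 2 or vector 36 h replicate 1 or 3 (adjusted p = 0.063 to 0.133), in the fit of only the groups compared (adjusted p = 0.0759) and without a filter (adjusted p = 0.0757). At 12 h the order was the other way, with 389, 475 and 551 in Sir2 cells, against 589, 585 and 696 in vector cells, without overlap, and that change did not pass. Rbpj, the DNA-binding partner of cut Notch receptors, had 185, 197 and 184 in Sir2 cells, against 122, 129 and 89.3 in vector cells (0.70 ± 0.14, adjusted p = 0.00962). It was the 1 of 5 tested nuclear effectors and targets to pass at 36 h, where 9.26% of all did, and its call was kept without any 1 array. Fbxw7, a ubiquitin ligase component that marks Notch for breakdown, averaged 60.7 ± 2.25 in Sir2 cells and 84.6 ± 3.46 in vector cells (SD, n = 3 each), the 1 of 11 tested processing genes to pass at 36 h (-0.43 ± 0.09, adjusted p = 0.0138). Its call was lost without Sir2 36 h replicate 1 or vector 36 h replicate 3 (adjusted p = 0.0549 to 0.058), and in the fit of only the groups compared (adjusted p = 0.0521).

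**Figure D4:**
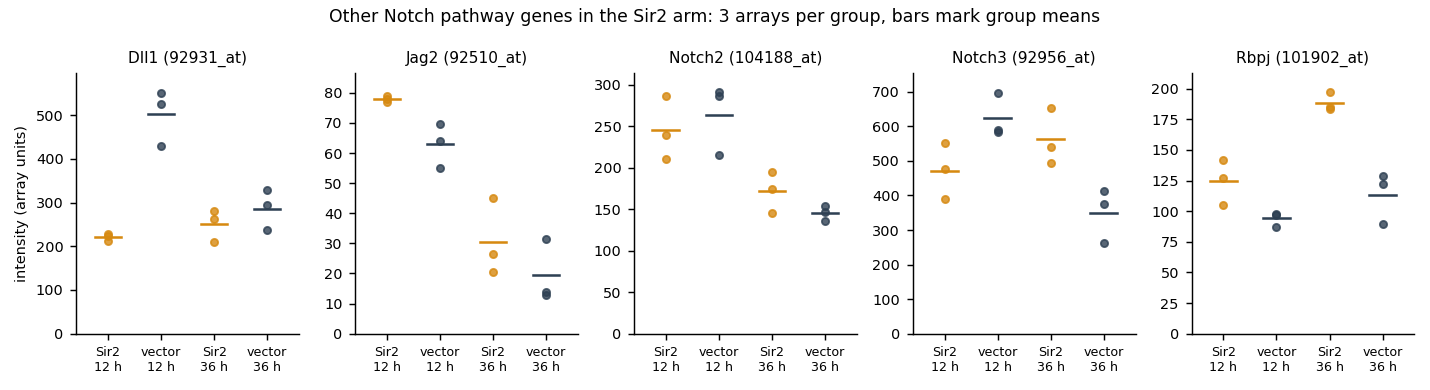
Intensity (vertical axis, array units) of 5 other Notch pathway genes in the Sir2 arm. Points are arrays, 3 per group, with Sir2 in orange left of vector in dark blue at each time, and bars are group means. At 12 h the Sir2 arrays lie below the vector arrays for Dll1 and Notch3 and above them for Jag2 and Rbpj, at 36 h they lie above them for Notch3 and Rbpj, and the first 4 panels fall with time in vector cells.

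In the TSA arm 3 of the 6 ligands and receptors were tested, and 1 passed for TSA against control, at 48 h, where 19.6% of all did. This was Notch2, at 1628 ± 116 in TSA-treated cells and 2285 ± 233 in control cells (SD, n = 2 each), with a log2 change of -0.45 ± 0.14 (adjusted p = 0.0428), lost without any 1 of the 4 arrays compared (adjusted p = 0.0519 to 0.19). Among 6 nuclear effectors and targets the co-repressors Tle5 and Tle3 were lower at 48 h, with a list median of -0.55 against -0.03 over all tested. Tle5 had 2449 and 2426 in TSA-treated cells, against 4701 and 4384 in control cells (-0.86 ± 0.15, adjusted p = 0.00142), and Tle3 had a log2 change of -0.90 ± 0.17 (adjusted p = 0.00338). At 4 h, where 11.4% of all passed, Tle3 was also lower (-0.66 ± 0.17, adjusted p = 0.0294), a call lost without any 1 of the arrays compared but TSA-treated 4 h replicate 1 (adjusted p = 0.0995 to 0.218), and the Notch target Hey1 was higher, at 390.4 ± 238 in TSA-treated cells against a control mean below 0, for which no fold is given (adjusted p = 0.0124), a call lost without any 1 of the arrays compared but TSA-treated 4 h replicate 2 (adjusted p = 0.0675 to 0.123). Of 10 processing genes 2 passed at 48 h, against the same 19.6% of all, both lower, the protease Adam10 (-0.58 ± 0.12, adjusted p = 0.00444) and the ubiquitin ligase Itch (-0.67 ± 0.18, adjusted p = 0.0227), the call of Itch lost without any 1 of the 4 arrays compared (adjusted p = 0.0556 to 0.0969). With only the groups compared in the fit, none of these Notch pathway calls at 4 and 48 h passed (adjusted p = 0.265 for Notch2, 0.106 for Tle5, 0.106 and 0.226 for Tle3 at 48 and 4 h, 0.0968 for Hey1, 0.181 for Adam10 and 0.154 for Itch). Over time, none of the 3 ligands and receptors passed as lower than at 0 h in this arm. In control cells 1 was higher at 4, 24 and 48 h, where 2.05%, 12.9% and 35.3% of all probe sets passed. In TSA-treated cells 1, Notch3, was higher at 24 and 48 h, where 16.6% and 26.4% passed. Its 24 h call was lost without any 1 of 3 of the arrays compared (adjusted p = 0.0755 to 0.294). That of 48 h was lost without any 1 of 2 (adjusted p = 0.0515 to 0.0849).

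Partners and targets of the Snai, Zeb and Twist factors were tested as separate lists. Of 5 partners 2 passed at 0 h, where 17.9% of all did, both lower with TSA, and they were Ctbp1, a co-repressor that Zeb1 recruits, and Tcf12, an E protein that pairs with MyoD and Twist1. Ctbp1 had 1853 and 1790.4 in TSA-treated cells, against 3534 and 3572 in control cells (-0.91 ± 0.10, adjusted p = 4.33e-05), and Tcf12 had a log2 change of -0.69 ± 0.12 (adjusted p = 0.00145). Tcf4, another E protein, was higher at 12 h (1.10 ± 0.23, adjusted p = 0.0169), where 4.08% of all passed, a call lost without any 1 of the arrays compared but control 12 h replicate 2 (adjusted p = 0.0693 to 0.144). Of 7 tested targets 2 passed, at 48 h, where 19.6% of all did, both higher with TSA, while the list median was -0.22 against -0.03 over all tested. They were Cdh2, the N-cadherin of myoblasts, at 1806 ± 35.9 in TSA-treated cells and 837 ± 5.08 in control cells (0.99 ± 0.14, adjusted p = 0.000339), and the protease Mmp14 (0.58 ± 0.16, adjusted p = 0.0252). The call of Mmp14 was lost without TSA-treated 48 h replicate 1 or control 48 h replicate 1 (adjusted p = 0.144 to 0.175). In the fit of only the groups compared Ctbp1 and Tcf12 passed at 0 h, and Tcf4 (adjusted p = 0.137), Cdh2 (adjusted p = 0.0852) and Mmp14 (adjusted p = 0.262) did not.

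Among 11 tested further repressors of myogenesis, Id2 had the smallest p with TSA at 12, 24 and 48 h. Id proteins tie up the E proteins that MyoD needs. Id2 had 2468 and 1834 in TSA-treated cells at 24 h, against 327 and 104 in control cells (2.76 ± 0.25, adjusted p = 4.61e-05), and 831 and 967 in TSA-treated cells at 48 h, against 133 and 65.8 in control cells (2.14 ± 0.25, adjusted p = 9.38e-05). It was higher at 4 and 12 h too, with a mean over the 5 times of 1.69 ± 0.11 (adjusted p = 6.06e-07). Its calls at 4, 12, 24 and 48 h did not pass in the fit of only the groups compared (adjusted p = 0.0535, 0.0817, 0.132 and 0.0688). Other genes of this list also passed at single times, with directions not given here. They included Ski and Hdac5 at 4 h, Ski at 12 h, Mdfic at 24 h and Ezh2 at 4 and 48 h. Of all probe sets 11.4%, 4.08%, 5.94% and 19.6% passed at 4, 12, 24 and 48 h. None of these further calls passed in the fit of only the groups compared (adjusted p = 0.117 to 0.31). At 0 h the gene of this list that passed was Id1 (1.13 ± 0.25, adjusted p = 0.00687), a call lost without TSA-treated 0 h replicate 2 (adjusted p = 0.0521). For the mean 3 of 11 passed, where 22% of all did, all higher (Id2, Id1 and Ezh2), with a median of -0.03 against -0.03 over all tested. In the Sir2 arm Id1 was higher at 12 h (0.52 ± 0.14, adjusted p = 0.049) and Msc, a repressor also called MyoR, lower at 36 h (-0.71 ± 0.20, adjusted p = 0.0477). The call of Id1 was lost without any 1 of the arrays compared but vector 12 h replicate 1 (adjusted p = 0.0728 to 0.179), and that of Msc was lost without any 1 of the arrays compared but Sir2 36 h replicate 2 (adjusted p = 0.0668 to 0.159). Neither passed with only the groups compared in the fit (adjusted p = 0.152 and 0.0864) or without a filter (adjusted p = 0.11 and 0.0962).

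The circadian genes, listed because Bhlhe40 acts in the clock, followed no single direction with TSA. Of all probe sets 17.9%, 11.4% and 19.6% passed at 0, 4 and 48 h. Of 9 tested, 1 passed at 0 h (Nr1d2, -0.89 ± 0.19, adjusted p = 0.00492), 1 at 4 h (Clock, -0.82 ± 0.19, adjusted p = 0.0144) and 3 at 48 h, namely Cry1 (0.69 ± 0.15, adjusted p = 0.00729) and Clock (0.65 ± 0.19, adjusted p = 0.0316) higher and Per3 lower (-0.57 ± 0.15, adjusted p = 0.0198). The 4 h call of Clock was lost without any 1 of the arrays compared but TSA-treated 4 h replicate 2 (adjusted p = 0.0723 to 0.0925), and at 48 h that of Cry1 was lost without TSA-treated 48 h replicate 1 or control 48 h replicate 1 (adjusted p = 0.0555 to 0.0615), that of Clock lost without any 1 of the arrays compared but control 48 h replicate 2 (adjusted p = 0.0904 to 0.168) and that of Per3 lost without any 1 of the arrays compared but TSA-treated 48 h replicate 1 (adjusted p = 0.0516 to 0.159). The calls of 4 and 48 h did not pass with only the groups compared in the fit (adjusted p = 0.0769 for Clock at 4 h and 0.231 for Cry1, 0.19 for Clock and 0.233 for Per3 at 48 h). With Sir2 at 36 h 2 passed, where 9.26% of all did, Arntl, the partner of Clock, higher (0.37 ± 0.10, adjusted p = 0.0331) and Cry1 lower (-0.41 ± 0.12, adjusted p = 0.0465). The call of Arntl was lost without any 1 of the arrays compared but vector 36 h replicate 1 (adjusted p = 0.0589 to 0.118), and that of Cry1 was lost without any 1 of the 6 arrays compared (adjusted p = 0.0619 to 0.149). Both were lost with only the groups compared in the fit (adjusted p = 0.0873 and 0.0881) and without a filter (adjusted p = 0.0709 and 0.0953).

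The genes whose group means over the 10 groups of the TSA arm were most like those of a member are given as a description. All members share the arrays, and Pearson's r over 10 group means was the measure. For Hes6 they were Gss (r = 0.904), Igfbp3 (0.891) and Herc2 (0.887), and for Bhlhe40 Higd2a (0.945), Cops9 (0.931) and Ifi27 (0.931). For Snai2 they were Ppp6r3 (0.922), Rere (0.906) and Pde6d (0.892). Zeb1 ran with Nisch (0.980), Pdlim4 (0.969) and Myod1 (0.959), the myogenic factor itself. Twist1 ran with Zfp36l2 (0.977), F2r (0.960) and Cx3cl1 (0.958), Hes1 with Cd37 (0.896), Pdia4 (0.883) and Tex261 (0.859), Snai1 with Tmem30a (0.917), Cilp2 (0.910) and Npnt (0.905), and Notch1 by its _r_at probe set with Upp1 (0.973), Mab21l2 (0.918) and Htr7 (0.916).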

How the data were processed

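RNA of C2C12 cells was measured on 32 Affymetrix arrays. The deposited values were intensities on a linear scale, 1 per probe set and array, scaled by the authors to a common trimmed mean within each arm, as the values show (801 in the TSA arm, 150 in the Sir2 arm). Per the submitters' processing notes the Sir2 arm was made with MAS5. For the TSA arm the sources used here name no tool, and 21.1% to 24.2% of its deposited intensities per array lay at or below 0. The table held 12488 probe sets, and 66 of them, made by Affymetrix as controls, were not used. Gene names came from the platform annotation, updated through Entrez identifiers to RefSeq symbols (GRCm38.p6), with 10833 probe sets of 1 gene, 396 of several and 1193 of none.

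Values below 0 were set to 0. The constant added before log2 was the 20th percentile of the values in the Sir2 arm and the 40th in the TSA arm, where the 20th percentile is below 0. Probe sets with a mean under the 40th percentile of means were not tested. Each arm was fitted with limma 3.58.1 (lmFit, eBayes, 1 mean per group, R 4.3.3), with Benjamini-Hochberg adjustment over all 7453 probe sets tested. The fit was tested on simulated data. Samples were grouped by treatment and time as labelled. The members and the gene lists were chosen with earlier results of these data known. Genes were named by rule: all members, landmarks of differentiation, up to 4 passing genes of smallest p per list and comparison, and the 3 genes most like each member. Alternatives were quantile normalization, median centring, a smaller and a larger constant, other filters, a generalised log, trend and robust variance, the replicate number or a title suffix as a term, only the groups compared, and each array left out. Figures were drawn with matplotlib 3.10.9.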

Additional observations from a re-analysis of the deposited data

Results flagged for a closer look

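The effect of TSA differed between times, by the moderated F test of limma over the 5 times, for 3 members. They were Bhlhe40 (adjusted p = 0.000687), which was higher with TSA at 0, 4, 12 and 48 h but not at 24 h, Hes6 (adjusted p = 0.00209), whose change was largest at 48 h, and Snai2 (adjusted p = 0.0256), which was lower at 24 and 48 h. Of the other genes named, the same test passed for the muscle genes Ckm (2.22e-05), Myod1 (0.00156), Myf5 (0.00361) and Myog (0.00782). Myod1 was higher with TSA at 4 and 12 h and lower at 48 h, and Myf5 was higher at 0 and 4 h. In that fit the Myod1 calls and the 4 h call of Myf5 did not pass either (adjusted p = 0.0717 to 0.388). The 12 h call of Myog was lost without any 1 of the 4 arrays compared (adjusted p = 0.136 to 0.235). The test of a difference between times also passed for Ctbp1 (0.000949), Tcf12 (0.0174), Tle5 (0.00274), Tle3 (0.0121), Cdh2 (0.00328) and Mmp14 (0.0149). It also passed for the repressors Ski (0.00323), Id2 (0.00347), Hdac5 (0.0149) and Ezh2 (0.0238) and for the clock genes Clock (0.0106), Nr1d2 (0.014) and Cry1 (0.0177). Mdfic and Mef2c, named above, passed this test too. The call of Mdfic was lost without any 1 of 16 of the arrays (adjusted p = 0.0514 to 0.166). That of Mef2c was lost without any 1 of 12 (adjusted p = 0.0508 to 0.0961) and without a filter (adjusted p = 0.07). The call of Snai2 was lost without TSA-treated 12 h replicate 1, TSA-treated 24 h replicate 2 or control 24 h replicate 2 or 3 (adjusted p = 0.0525 to 0.069). That of Tcf12 was lost without TSA-treated 0 h replicate 1 or control 0 h replicate 2 (adjusted p = 0.0591 to 0.0616), that of Ezh2 was lost without TSA-treated 0 h replicate 1, TSA-treated 4 h replicate 1, control 0 h replicate 1 or 2 or control 4 h replicate 1 (adjusted p = 0.0544 to 0.0624) and that of Cry1 was lost without TSA-treated 48 h replicate 1 or control 48 h replicate 1 (adjusted p = 0.0542 to 0.0744). In the Sir2 arm the difference between the effects at 36 and 12 h passed for Dll1 (adjusted p = 0.0432) and was lost without any 1 of the arrays compared but Sir2 36 h replicate 3 (adjusted p = 0.0507 to 0.107). It was also lost without a filter (adjusted p = 0.0996). Groups of 2 or 3 arrays were too small to look for arrays far from the others.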

How the results depend on the processing

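No called value changed direction under an alternative. The counts of members passing that moved were these. When only the groups compared were fitted, which leaves 2 to 4 residual degrees of freedom, TSA against control had 1 at 4 h and 0 at 12, 24 and 48 h, control cells had 0 at 4 h and 0 at 12 h, TSA-treated cells had 0 at 4 h, 1 at 12 h and 1 at 24 h, and Sir2 against vector at 12 h had 2. Same-numbered arrays share only a number, with correlations of their deviations from the group means of -0.314 to 0.228. With the replicate number as a block, TSA-treated cells had 1 at 12 h and 2 at 24 h. Without a filter Sir2 against vector at 12 h had 2. The difference between the Sir2 times had 1 with median centring, with the 60th percentile filter and with trend and robust variance. Leaving out each array in turn gave, for TSA against control, 2 to 2 at 0 and 4 h, 0 to 1 at 12 h, 2 to 3 at 24 and 48 h, 4 to 6 for the mean and 2 to 4 for the difference between times. It gave 0 to 1, 0 to 2, 3 to 3 and 1 to 4 in control cells at 4, 12, 24 and 48 h, 0 to 1, 0 to 1, 2 to 5 and 2 to 3 in TSA-treated cells, 1 to 3, 2 to 3, 3 to 4 and 0 to 1 for Sir2 at 12 h, 36 h, their mean and their difference, 2 to 5 over time in vector cells and 2 to 2 in Sir2 cells. Calls over all probe sets fell as well. For TSA against control 1336 passed at 0 h with all arrays and 798 to 913 with 1 left out. At 4 h these were 846 and 435 to 584, at 12 h 304 and 111 to 264, at 24 h 443 and 231 to 278, and at 48 h 1464 and 968 to 1221. In control cells at 4 h they were 153 and 24 to 45, and for Sir2 against vector at 12 h 414 and 215 to 331. With 2 or 3 arrays per group and dim probe sets compressed, small changes of Notch1, Twist1 and Snai1 could not be resolved.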
